A study of Mus musculus with 16 samples.

Results

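The genes described here are 10 transcripts that mark the macrophages living inside sympathetic ganglia, measured in superior cervical ganglion (SCG) explants that were grown alone or beside other cells. They are Adgre1, Csf1r, Cd68, Aif1, Cx3cr1, C1qa, C1qb, C1qc, Mrc1 and Clec4n, taken by exact gene name among the protein-coding genes of the nerve expression table. Each name matched 1 gene, so 10 of 56941 listed genes, or 10 of the 21684 protein-coding ones, are members. The names were chosen as macrophage markers and not by a threshold in these values, but Clec4n was already singled out by the study from the same libraries, so its direction here is not independent evidence.

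Ganglia were taken from wild-type C57BL/6J pups at postnatal day 1 to 4, and 8 to 13 explants shared a well. The SCG group was cultured alone (n = 3), the SCG+MEF group faced inserts carrying NIH 3T3 cells, an embryonic mouse fibroblast line (n = 3), and the SCG+PSC group faced inserts carrying mPSC1, an immortalized mouse pancreatic stellate cell line (n = 4). An insert held 10000 cells and coculture lasted 70 hours, with medium but no direct contact shared between explant and insert cells. Poly(A) RNA was sequenced from the explants of each culture, and the stellate cells themselves were sequenced alone (PSC, n = 3) or after coculture (PSC+SCG, n = 3). No treatment, transgene or deletion distinguished the groups beyond the insert cells. The explants still held their own neurons, glia, fibroblasts and vessels, and both insert cell types are single lines, so the comparison is with a line of each kind and not with primary cells.

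Macrophages depend on the colony-stimulating factor 1 receptor, the product of Csf1r, whose ligands are Csf1 and Il34. Those resident in peripheral nerves and ganglia clear debris and respond to injury, and they are usually recognized by F4/80 (Adgre1), by the lysosomal glycoprotein CD68, by the cytoskeletal adaptor IBA1 (Aif1) and by the fractalkine receptor (Cx3cr1). They are also a main source of C1q, the recognition subunit of the classical complement pathway, which is built from A, B and C chains (C1qa, C1qb and C1qc). Mrc1 encodes the mannose receptor CD206, an endocytic lectin of many tissue-resident macrophages, and Clec4n encodes dectin-2, a C-type lectin that recognizes mannose-rich glycans and signals through an Fc receptor gamma chain and Syk.

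In the mouse genome assembly GRCm39, Mrc1 (ENSMUSG00000026712) lay on the plus strand of chromosome 2 from 14234151 to 14336926, and Clec4n (ENSMUSG00000023349) on the plus strand of chromosome 6 from 123206802 to 123223980. The C1q genes were neighbours on the minus strand of chromosome 4, with C1qb (ENSMUSG00000036905) at 136606009 to 136613511, C1qc (ENSMUSG00000036896) at 136616466 to 136620376 and C1qa (ENSMUSG00000036887) at 136623223 to 136626161. Adgre1 (ENSMUSG00000004730) spanned 57665573 to 57790527 on the plus strand of chromosome 17, Aif1 (ENSMUSG00000024397) 35387384 to 35395053 on the minus strand of the same chromosome, Cd68 (ENSMUSG00000018774) 69555037 to 69557067 on the minus strand of chromosome 11 and Cx3cr1 (ENSMUSG00000052336) 119877749 to 119898945 on the minus strand of chromosome 9. No exon of the 10 genes overlapped another gene on its own strand. Exons on the opposite strand covered 19.3% of the exon bases of Csf1r and 11.4% of those of C1qc, and the libraries were prepared with a kit that keeps the strand.

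Mrc1 was one of the members whose level stood apart in coculture with stellate cells and C1qc one that did not, so the 250 bases before the annotated start of each are shown, from the GRCm39 reference and read in the direction of the gene, Mrc1 at chr2:14233901-14234150 on the plus strand and C1qc at chr4:136620377-136620626 on the minus strand. Capitals mark the core of the recognition sequence of PU.1, a transcription factor of the myeloid lineage (GAGGAA, searched on both strands and here read as its reverse complement TTCCTC).
Mrc1: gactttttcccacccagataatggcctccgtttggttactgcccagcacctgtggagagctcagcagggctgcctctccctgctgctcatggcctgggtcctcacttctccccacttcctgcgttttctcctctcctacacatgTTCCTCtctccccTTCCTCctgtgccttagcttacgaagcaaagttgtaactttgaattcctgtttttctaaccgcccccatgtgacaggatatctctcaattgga
C1qc: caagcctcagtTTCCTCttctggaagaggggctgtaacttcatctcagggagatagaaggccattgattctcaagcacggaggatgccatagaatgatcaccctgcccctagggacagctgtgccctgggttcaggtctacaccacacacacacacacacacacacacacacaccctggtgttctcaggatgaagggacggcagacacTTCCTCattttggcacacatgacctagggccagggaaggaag
The Mrc1 window held 2 such cores, at 106 to 101 and 93 to 88 bases before the start, and the C1qc window also held 2, at 239 to 234 and 42 to 37. Windows were searched for 6 members, Cd68, Aif1, Cx3cr1, C1qb, C1qc and Mrc1, and 4 of them held this short motif, as did 22.7% of 15653 protein-coding promoter windows of the same length. The C/EBP-type pattern TTGCNNAA, in 9.24% of windows, and the STAT-type pattern TTCNNNGAA, in 7.31%, were in none of the 6. A match of letters is a description of the window and no measure of binding.

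All 10 members were detected in every nerve library and all passed the filter on low values, a summed normalized count of at least 10, in which 23779 genes remained. Levels are size-factor normalized read counts as deposited, in which longer transcripts collect more reads, so genes are ranked only per kilobase of the canonical transcript. On that scale Cd68 stood highest in SCG at a mean of 1366 normalized counts per kilobase, followed by C1qa at 1119, C1qc at 946 and C1qb at 782. Csf1r at 188 and Adgre1 at 168 came next, and Cx3cr1 at 62.0, Clec4n at 50.1, Aif1 at 37.4 and Mrc1 at 36.1 were lowest. Neighbours in this order overlapped over the SCG libraries except at the steps from C1qb to Csf1r and from Adgre1 to Cx3cr1, and C1qa with C1qc, and Cx3cr1 with Clec4n, changed places when all annotated exons replaced the canonical transcript. In SCG+PSC the upper 6 kept their order, while Clec4n at 139.8 and Mrc1 at 81.3 per kilobase stood above Cx3cr1 at 47.6 and Aif1 at 31.4.

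**Figure D1:**
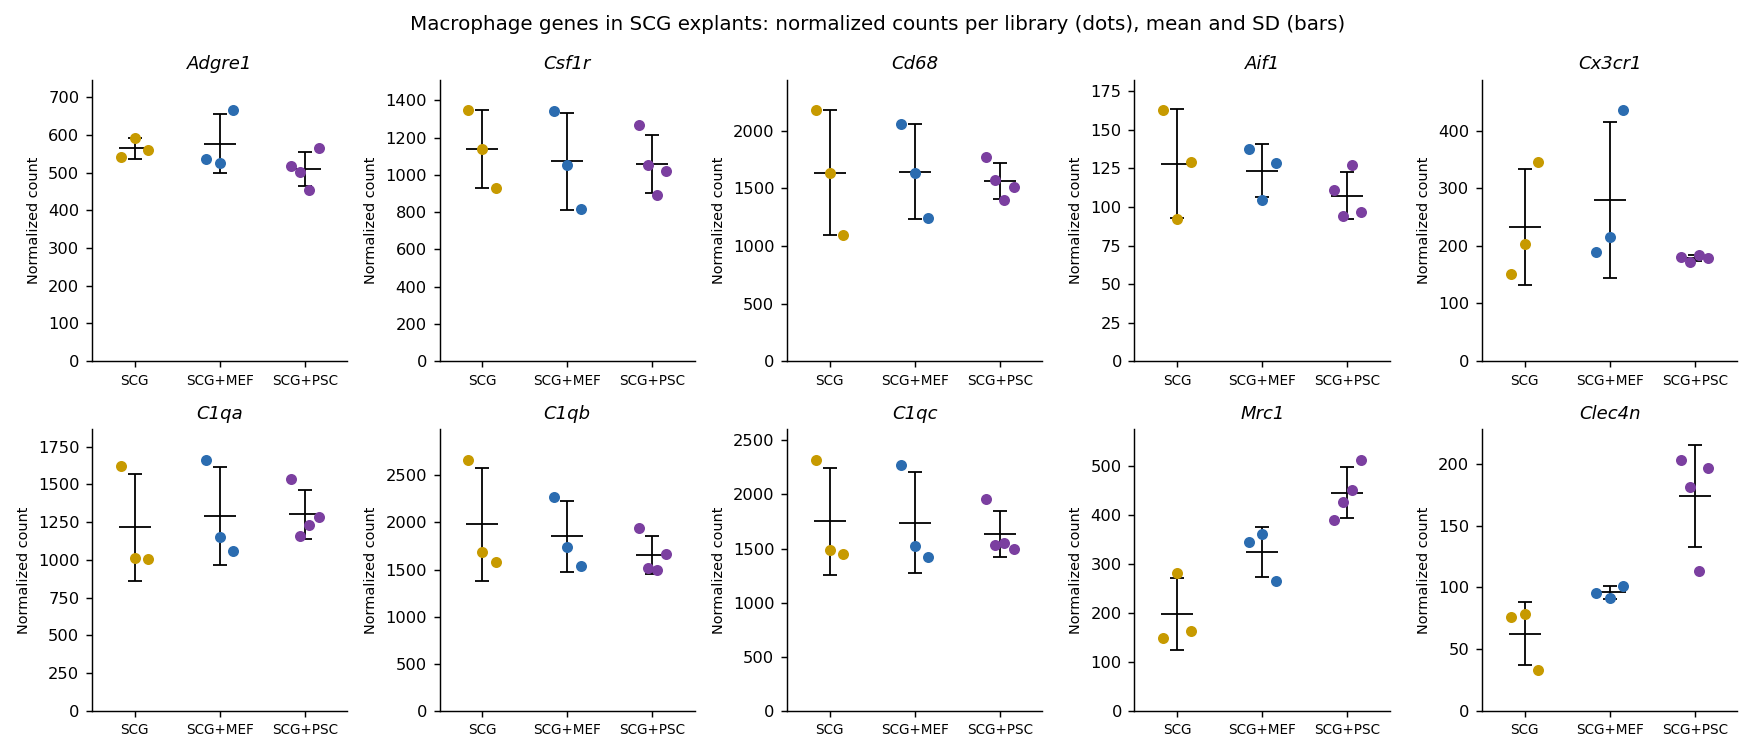
Normalized read counts (vertical axes, linear and starting at 0) of the 10 members in the nerve libraries, by group. Points are libraries in order of replicate number, with the group mean and SD (SCG and SCG+MEF n = 3, SCG+PSC n = 4). Mrc1 and Clec4n have every SCG+PSC library above every SCG library, and the other panels overlap between these groups.

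The macrophage surface and lysosomal markers were at much the same level in the 3 kinds of culture. Adgre1, an adhesion receptor used to identify mouse macrophages, read 541, 594 and 559 normalized counts in SCG replicates 1 to 3, 537, 526 and 667 in SCG+MEF and 517, 502, 455 and 567 in SCG+PSC. The groups overlapped, with means of 565 ± 26.8 (SD, n = 3), 577 ± 78.5 (SD, n = 3) and 510.2 ± 46.1 (SD, n = 4). Its log2 fold change in SCG+PSC against SCG was -0.15 with a standard error (SE) of 0.13. Between same-numbered libraries Adgre1 was lower in SCG+PSC than in SCG in 3 of 3 pairs, with log2 differences of -0.064, -0.24 and -0.30. It was also lower than in SCG+MEF in 3 of 3. The share of all genes that keep their direction over every pair was not counted, here or below.

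Csf1r, the receptor that macrophages need for survival, read 1349, 1138 and 929 normalized counts in SCG, 1343, 1053 and 819 in SCG+MEF and 1268, 1052, 894 and 1022 in SCG+PSC. The spread lay between replicate numbers rather than between groups, with replicate 1 the highest library of each group. The log2 fold change was -0.10 (SE 0.18) for SCG+PSC against SCG and -0.10 (SE 0.20) for SCG+MEF against SCG. In both cocultures Csf1r was lower than in SCG in 3 of 3 same-numbered pairs. The log2 differences were -0.089, -0.11 and -0.056 in SCG+PSC.

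Cd68, a glycoprotein of lysosomes and endosomes, read 2181, 1632 and 1095 normalized counts in SCG, 2062, 1631 and 1243 in SCG+MEF and 1769, 1573, 1398 and 1512 in SCG+PSC. It too was highest in replicate 1 and lowest in replicate 3 of every group, and its log2 fold change was -0.02 (SE 0.22) in SCG+PSC and 0.03 (SE 0.24) in SCG+MEF, each against SCG. Aif1 stood at 163, 92.3 and 129 normalized counts in SCG, 138, 104 and 129 in SCG+MEF and 111, 94.3, 127 and 96.8 in SCG+PSC. These values overlapped, and the log2 fold change of Aif1 in SCG+PSC against SCG was -0.23 (SE 0.22).

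Cx3cr1, the receptor for the neuronal chemokine fractalkine, followed the opposite order of replicates. It read 151, 203 and 345 normalized counts in SCG, 189, 215 and 436 in SCG+MEF and 180.3, 172, 185 and 179 in SCG+PSC. Replicate 3 was highest in each group, by little in SCG+PSC. The SCG+PSC libraries lay within a narrow band (179 ± 5.17, SD, n = 4) that overlapped the SCG values and sat below every SCG+MEF value. The log2 fold change was -0.29 (SE 0.31, 95% confidence interval -0.97 to 0.39) for SCG+PSC against SCG and -0.54 (SE 0.31, interval -1.22 to 0.14) for SCG+PSC against SCG+MEF.

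The 3 C1q chains were abundant and moved as a unit from library to library. C1qa, the A chain, read 1624, 1015 and 1009 normalized counts in SCG, 1665, 1154 and 1059 in SCG+MEF and 1535, 1158, 1233 and 1284 in SCG+PSC. C1qb, the B chain, read 2668, 1691 and 1579 in SCG, 2273, 1744 and 1539 in SCG+MEF and 1943, 1521, 1494 and 1662 in SCG+PSC. C1qc, the C chain, read 2323, 1488 and 1446 in SCG, 2276, 1521 and 1426 in SCG+MEF and 1956, 1534, 1555 and 1493 in SCG+PSC. Replicate 1 was the highest library of its group for each chain, and the groups overlapped throughout. The log2 fold changes in SCG+PSC against SCG were 0.13 (SE 0.20) for C1qa, -0.23 (SE 0.19) for C1qb and -0.07 (SE 0.20) for C1qc. C1qb was lower in SCG+PSC in 3 of 3 same-numbered pairs, with log2 differences of -0.46, -0.15 and -0.079, and with the replicate number as a block its limma p was 0.0227 unadjusted and 0.345 adjusted.

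No chain passed the threshold with or without the replicate block, and the proportions among the chains differed between groups. C1qa made up 24.6% ± 0.411 (SD, n = 3) of the summed C1q count in SCG, 26.4% ± 0.342 (SD, n = 3) in SCG+MEF and 28.4% ± 0.653 (SD, n = 4) in SCG+PSC. The 3 ranges did not overlap, at 24.2% to 25.0%, 26.1% to 26.8% and 27.5% to 28.9%. C1qb made up 39.9% ± 0.686 in SCG, 38.1% ± 1.45 in SCG+MEF and 36.1% ± 1.06 in SCG+PSC, with no overlap between SCG+PSC and SCG, while C1qc stayed near 35.5%, 35.5% and 35.6%. The quantities were formed after the values had been seen and are given as a description without a test.

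**Figure D2:**
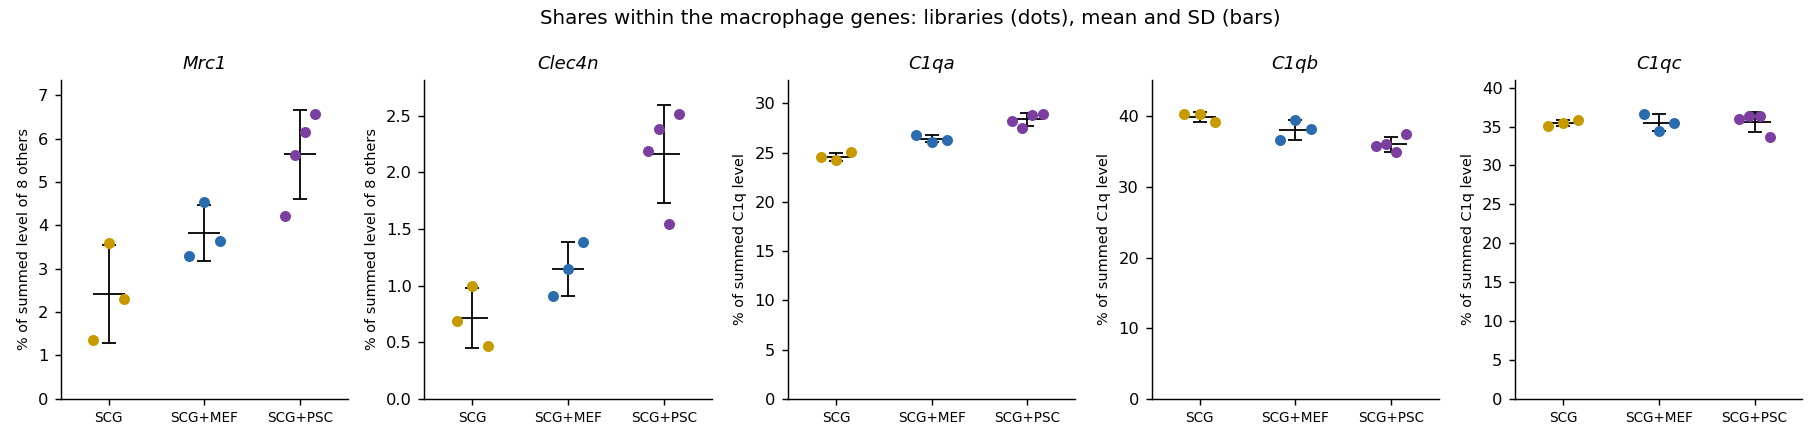
Proportions among the members in the nerve libraries, in percent (vertical axes), by group. Points are libraries with the group mean and SD. The share of C1qa in the C1q sum has 3 separate ranges, and Mrc1 and Clec4n as a percentage of the 8 other members are higher in every SCG+PSC library than in SCG, while for Mrc1 SCG+PSC replicate 1 (4.21%) lies below SCG+MEF replicate 2 (4.54%).

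The mannose receptor gene Mrc1 had the clearest separation of groups together with Clec4n. Mrc1 read 149, 283 and 163 normalized counts in SCG, 346, 361 and 266 in SCG+MEF and 390.4, 427, 452 and 513 in SCG+PSC. Every SCG+PSC library exceeded every library of both other groups, whereas SCG+MEF replicate 3 lay below SCG replicate 2. The means were 198 ± 73.5 (SD, n = 3), 324 ± 51.2 (SD, n = 3) and 446 ± 51.8 (SD, n = 4).

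For SCG+PSC against SCG, the log2 fold change of Mrc1 was 1.22 (SE 0.22, 95% confidence interval 0.74 to 1.70), a fold of 2.33. The limma test adjusted over all 23779 genes gave an adjusted p of 0.191, above the threshold of 0.05. Libraries with the same replicate number deviated from their group means together, and with that number as a block the log2 fold change was 1.15 and the limma adjusted p 0.00973, past the threshold. SCG+PSC replicate 4 has no partner and carries no weight in the blocked value. Between same-numbered libraries Mrc1 was higher in SCG+PSC in 3 of 3 pairs, by 1.39, 0.59 and 1.47 on the log2 scale.

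Clec4n, the dectin-2 gene, read 75.9, 78.0 and 32.8 normalized counts in SCG, 95.3, 91.1 and 101 in SCG+MEF and 203, 181 (replicate 2), 113 (replicate 3) and 197 in SCG+PSC. The 3 groups were fully separated, with means of 62.2 ± 25.5 (SD, n = 3), 95.9 ± 5.16 (SD, n = 3) and 174 ± 41.3 (SD, n = 4). For SCG+PSC against SCG the log2 fold change was 1.53 (SE 0.31, 95% confidence interval 0.85 to 2.21), a fold of 2.89, with a limma adjusted p of 0.349. With the replicate block the log2 fold change was 1.46 and the limma adjusted p 0.0149, and Clec4n was higher in SCG+PSC in 3 of 3 pairs, by 1.41, 1.21 and 1.76.

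Against SCG, 0 of 10 members in SCG+PSC passed the threshold without the block (a limma adjusted p no higher than 0.05 together with a log2 difference of 0.5 or more either way), against a background of 0.0336% of all genes tested. With the block 2 of 10 passed, Mrc1 and Clec4n, against 1.31% of all genes. At an unadjusted p under 0.05 the same pair stood out, 2 of 10 against 5.05%. They were also the 2 members whose SCG+PSC libraries all lay above SCG, against 2.83% of genes, and no member lay wholly below, against 2.32%. On reads recovered from the values, which left out SCG+PSC replicate 4 and so compared 3 libraries with 3, edgeR called 0 members and DESeq2 called both Mrc1 and Clec4n. Of 23680 genes edgeR called 3 higher and 0 lower, and DESeq2 called 52 higher and 7 lower. The median log2 fold change over the 10 members was -0.09, against 0.0001 over all genes, and 3 of 10 were positive. The smallest p that an exact permutation test of 4 against 3 libraries can give is 0.0571, which Mrc1 and Clec4n each reached.

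**Figure D3:**
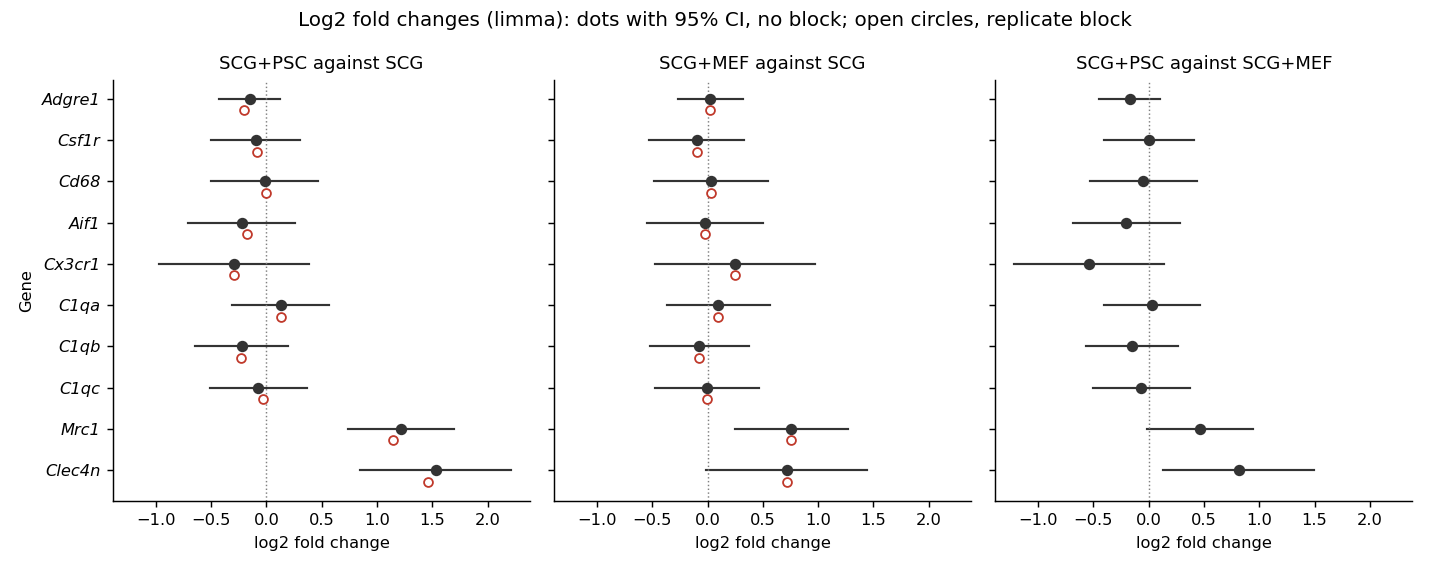
Log2 fold change (horizontal axis) of each member in the 3 comparisons, as dots with 95% confidence intervals from limma without the block, with open circles for the blocked value against SCG. In SCG+PSC against SCG the intervals of Mrc1 (0.74 to 1.70) and Clec4n (0.85 to 2.21) lie above 0 and those of the other 8 members include it.

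Coculture with the fibroblast line gave smaller differences in the same members. In SCG+MEF against SCG, the log2 fold change of Mrc1 was 0.75 (SE 0.23, 95% confidence interval 0.24 to 1.27) and that of Clec4n 0.71 (SE 0.33, interval -0.02 to 1.45). Both genes were higher in 3 of 3 same-numbered pairs, but the Clec4n differences of 0.32, 0.22 and 1.60 were uneven, replicate 3 being the one with the low SCG value. The other 8 members had log2 fold changes between -0.10 and 0.25. No member passed the threshold without the block (limma adjusted p of 1 for both lectins, background 0.0126%) or with it (0.192 for Mrc1 and 0.519 for Clec4n, background 0.16%). Mrc1 was the 1 member with an unadjusted p under 0.05, against 3.37% of genes. Clec4n was the 1 member with SCG+MEF wholly above SCG, against 2.99%, and none lay wholly below, against 3.64%. The comparison shares its SCG libraries with the preceding one, and an exact permutation test of 3 against 3 cannot go below 0.1.

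The 2 cocultures were then set against each other, since a difference here separates the stellate line from the fibroblast line. Clec4n was 1.76-fold higher in SCG+PSC than in SCG+MEF, a log2 fold change of 0.81 (SE 0.31, 95% confidence interval 0.13 to 1.50), and Mrc1 was 0.46 higher (SE 0.22, interval -0.01 to 0.94). Neither passed the limma threshold over all genes, at an adjusted p of 1 for each, as 0% of all genes did. Without the block Clec4n had an unadjusted p of 0.0236 by limma, the 1 member of 10 under 0.05 against 4.08% of genes, and this rose to 0.0536 without SCG+MEF replicate 1, 0.0599 without SCG+MEF replicate 2, 0.0609 without SCG+PSC replicate 1 and 0.0579 without SCG+PSC replicate 4. With the replicate block 3 members were under 0.05 by limma, Cx3cr1, Mrc1 and Clec4n, as were 2774 of 23779 genes. Of the 10 members 0 passed the threshold with the block, against 157 genes higher and 30 lower of 23779. Mrc1 and Clec4n were the 2 members wholly above SCG+MEF, against 2.47%, and Cx3cr1 the 1 wholly below, against 2.3%. The pairs of Clec4n differed by 1.09, 0.99 and 0.16 on the log2 scale, so replicate 3 contributed little.

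In bulk libraries of whole explants, fewer macrophages and less RNA per macrophage cannot be told apart. Mrc1 and Clec4n were also expressed relative to the other members, which does not separate these possibilities. They are the members whose SCG+PSC libraries had already been seen to lie above SCG, so the percentages are a description without a test. The 8 others summed to 8648 ± 2071 normalized counts (SD, n = 3) in SCG, 8583 ± 1676 (SD, n = 3) in SCG+MEF and 8011 ± 868 (SD, n = 4) in SCG+PSC. Mrc1 corresponded to 2.42% ± 1.13 of that sum in SCG, 3.82% ± 0.644 in SCG+MEF and 5.64% ± 1.03 in SCG+PSC. Clec4n corresponded to 0.715% ± 0.266, 1.15% ± 0.238 and 2.16% ± 0.432. The Mrc1 percentages ran from 1.35% to 3.60% in SCG and from 4.21% to 6.57% in SCG+PSC, and those of Clec4n from 0.462% to 0.993% and from 1.54% to 2.52%, without overlap in either case. As the sum of the 8 others differed little between groups, these percentages largely repeat the counts of Mrc1 and Clec4n.

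Within groups the members did not vary as 1 block. Over the 10 libraries, the deviations of the C1q chains from their group means correlated with one another at Pearson r of 0.96 to 0.98, a description in which the points share libraries and their depth. Cx3cr1 ran against Cd68 (r = -0.92) and Csf1r (r = -0.83), and the median of its correlations with the other 7 surface and C1q members was -0.70. Among those 7 the median r was 0.62. Mrc1 had a median r of -0.26 with the 8 members other than Clec4n, and Clec4n one of 0.38.

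**Figure D4:**
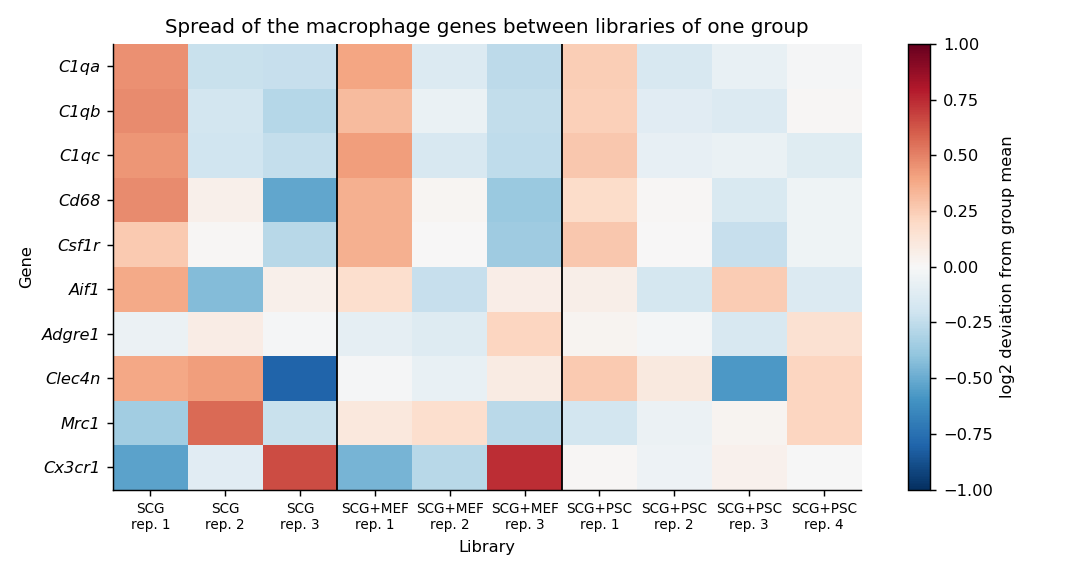
Deviation of each member (rows) from its group mean in each of the 10 nerve libraries (columns), as a color from blue for lower to red for higher on the scale of log2(normalized count + 1). Csf1r, Cd68 and the C1q chains are red in replicate 1 of each group, and Cx3cr1 in SCG and SCG+MEF is red in replicate 3 and blue in replicate 1.

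The ligands of 2 of these receptors were measured in the same explants. Csf1, the growth factor that signals through Csf1r, averaged 6212 ± 4026 normalized counts (SD, n = 3) in SCG, 4706 ± 3176 (SD, n = 3) in SCG+MEF and 3436 ± 2051 (SD, n = 4) in SCG+PSC. Its log2 fold change in SCG+PSC against SCG was -0.79 (SE 0.52), with a limma adjusted p of 1 without the block. With the block it fell by 0.65 on the log2 scale with a limma adjusted p of 0.0218, and it was lower in each of the 3 pairs. Il34, the second ligand of the receptor, had a log2 fold change of -0.04 (SE 0.28), and Cx3cl1, which encodes fractalkine, one of 0.22 (SE 0.17).

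In the stellate line itself 5 of the 10 members were at or near 0, while Cd68, Csf1r and Mrc1 were detected in every library. In its 6 libraries, whose table was normalized separately so that levels are not compared across tables, Adgre1, C1qb and C1qc were listed at 0 throughout and C1qa and Clec4n did not exceed 1 normalized count. Mrc1 ranged from 14.8 to 21.1, Csf1r from 51.1 to 179 and Cd68 from 127 to 217. The line was rich in the ligand Csf1, at 30649 ± 5596 normalized counts (SD, n = 3) in PSC and 35563 ± 14331 (SD, n = 3) in PSC+SCG. The NIH 3T3 cells were not sequenced in the libraries used here.

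Other macrophage genes were followed by lists, each given by its count and by up to 2 members named for their high mean level. Some of the genes named in this way are not specific to macrophages. In the stellate line alone (PSC), Gpnmb averaged 30687, Olfml3 3129, Maf 2382, Cd80 779 and Egr2 312 normalized counts. Others were low there, such as Lyz2 at 27.5, Ctss at 7.9 and Arg1 at 0.757. Which cells of the explants expressed the named genes was not tested. For the same contrast of SCG+PSC with SCG, 0 genes of any of the lists passed the limma threshold without the block. Of 20 general myeloid genes, 10 were positive, with a median log2 fold change of 0.01, including Lyz2, the lysozyme of myeloid cells, at -0.21 (SE 0.22) and Ctss, cathepsin S, at -0.33 (SE 0.23). With the block 1 of them was called, against 1.31% of all genes. It was the integrin subunit Itgb2, at 0.52 and a limma adjusted p of 0.045. Of 10 genes typical of Mrc1-type resident macrophages, 9 were tested and 7 were positive, with a median of 0.31. Among the 9, Lyve1, Cbr2, Clec10a and Timd4 had group means of no more than 5.65 normalized counts, so their signs carry little weight. Stab1, a scavenger receptor, stood at 0.27 (SE 0.21) and Maf, a transcription factor of resident macrophages, at -0.19 (SE 0.16).

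In that list Pf4, the chemokine CXCL4, was the 1 gene called with the block, where 1.31% of all genes were called. It averaged 36.4 ± 20.3 normalized counts (SD, n = 3) in SCG, 123 ± 50.9 (SD, n = 3) in SCG+MEF and 226 ± 95.5 (SD, n = 4) in SCG+PSC. Its log2 fold change in SCG+PSC against SCG was 2.60 (SE 0.47), with a limma adjusted p of 0.191 without the block and 0.00872 with it. Pf4, Itgb2, Lyve1, Cd163, Cbr2, Clec10a and Timd4 were named after their values had been seen. The study had already named Pf4 from the same libraries, so its direction here is not independent evidence. Lyve1, a hyaluronan receptor of some resident macrophages, stayed at a mean of 3.36, 1.46 and 3.27 normalized counts and the scavenger receptor gene Cd163 was at or near 0 in each group.

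Genes of the microglia type gave 5 of 7 tested positive with a median of 0.20, among them the secreted olfactomedin Olfml3 at 0.20 (SE 0.21). Of 6 alternative activation genes only 3 passed the filter on low values. Arg1, arginase 1, averaged 243 ± 172, 296 ± 108 and 735 ± 327 normalized counts in SCG, SCG+MEF and SCG+PSC, a log2 fold change of 1.69 (SE 0.48) in SCG+PSC that was not called with or without the block. The transcription factor gene Egr2 stood at 0.40 (SE 0.13). Of 9 inflammatory genes tested, 5 were positive, and Ptgs2, which encodes cyclooxygenase 2, fell with the block in both cocultures. It averaged 1107 ± 322 in SCG, 475 ± 154 in SCG+MEF and 480.3 ± 183 in SCG+PSC, with blocked limma adjusted p of 0.00743 and 0.00579. Ptgs2 is not specific to macrophages, as it averaged 3093 normalized counts in the stellate line alone (PSC). Which cells of the explants lowered it was not tested. Cd80, a costimulatory ligand, stood at -0.29 (SE 0.53).

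The 10 lipid- and injury-associated genes had a median of 0.00 with 5 positive, including the apolipoprotein gene Apoe at -0.43 (SE 0.19) and the transmembrane glycoprotein gene Gpnmb at 0.04 (SE 0.33). All 5 class II antigen presentation genes were measured at low levels, with Cd74, the invariant chain, at a mean of 108 and H2-Ab1 at 77.4 normalized counts in SCG+PSC and 3 of 5 positive. Among 8 genes of the C-type lectin cluster and its signaling, 5 were positive in SCG+PSC and 8 in SCG+MEF, each against SCG. Clec7a, dectin-1, stood at 0.45 (SE 0.18) in SCG+PSC and the kinase gene Syk at -0.11 (SE 0.21). The 8 partners of C1q in the classical pathway were all positive in both cocultures, with a median of 0.38 in SCG+PSC and 0.47 in SCG+MEF, and none was called. Not all of them are specific to macrophages. In the stellate line alone (PSC), C1s1 averaged 6314 and Serping1 893 normalized counts, though C5ar1 averaged 0.642. The C1 inhibitor gene Serping1 stood at 0.23 (SE 0.15) and the protease gene C1s1 at 0.13 (SE 0.16) in SCG+PSC, against 0.51 (SE 0.16) and 0.60 (SE 0.17) in SCG+MEF.

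**Figure D5:**
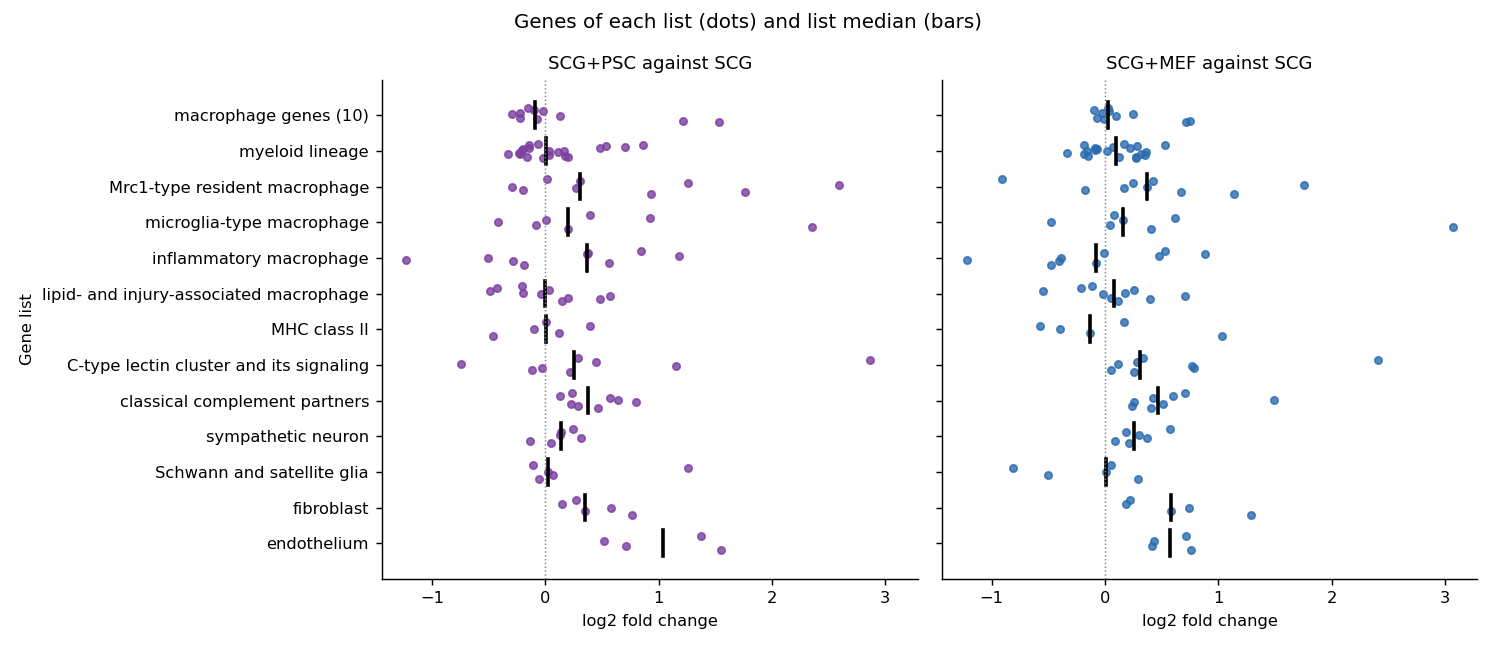
Log2 fold changes (horizontal axis) of the genes of the members and other lists in SCG+PSC against SCG (left) and in SCG+MEF against SCG (right). Points are genes and bars the list medians. The lists of macrophage types straddle 0, while all 4 endothelial genes, all 5 fibroblast genes and all 8 classical complement partners lie above it in both comparisons.

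Markers of other cells show what else the explants held. The 6 sympathetic neuron genes had a median log2 fold change of 0.14 in SCG+PSC against SCG, with Dbh, which makes noradrenaline, at 0.14 (SE 0.25) and Slc6a2, which takes it up, at 0.13 (SE 0.37), and the 5 glial genes one of 0.02. T cell, mast cell and B cell markers were at or near 0, with summed levels of at most 4.05, 6.41 and 22.3 normalized counts in any library. Of 5 monocyte genes 3 passed the filter and all 3 were positive, including Vcan at 0.40 (SE 0.30) and Plac8 at 0.56 (SE 0.37), both of which other cells also express. Neutrophil markers summed to 37.3 to 118 and dendritic cell markers to 539 to 1089 normalized counts over the nerve libraries. Most of the neutrophil sum was Csf3r, at means of 94.3, 89.1 and 53.5 in SCG, SCG+MEF and SCG+PSC. Most of the dendritic cell sum was Zbtb46, at 825, 864 and 741. S100a8, S100a9, Ly6g, Xcr1 and Clec9a were at or near 0, so these sums do not show that either cell type was present. The 5 fibroblast genes were all positive, with a median of 0.35 and Col1a2 at 0.15 (SE 0.23).

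Endothelial markers moved in the same direction as Mrc1. All 4 were positive in SCG+PSC against SCG, with a median log2 fold change of 1.04, and all 4 in SCG+MEF, with a median of 0.57. Cdh5, vascular endothelial cadherin, stood at 0.52 (SE 0.14) and Pecam1 at 1.37 (SE 0.42), and none of the 4 was called with or without the block. Their summed level ran from 1147 to 1744 normalized counts in SCG, 1739 to 1973 in SCG+MEF and 1754 to 2573 in SCG+PSC. Mrc1 is also known from some endothelial cells, and the part of vessel cells in its level was not tested.

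The genes whose profile over the 10 nerve libraries was most like the mean of the 10 members were Ggct (Pearson r = 0.945), Sema4f (0.944), Zkscan5 (0.942) and Cd4 (0.940), followed by Ctsb (0.934), Lamtor4 (0.934), Slc15a3 (0.932), Pla2g7 (0.926), Arsi (0.924) and Dpm2 (0.923), out of 12839 protein-coding candidates. The members themselves were unevenly close to that mean, which they help to form. C1qa stood at 0.924, C1qc at 0.918, C1qb at 0.879, Cd68 at 0.858 and Csf1r at 0.799, against 0.457 for Aif1 and 0.307 for Clec4n. Adgre1 at -0.01, Mrc1 at -0.05 and Cx3cr1 at -0.47 did not follow it.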

How the data were processed

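Bulk RNA was sequenced from 10 nerve and 6 stellate cell libraries, grouped by their titles. The authors aligned stranded poly(A) reads with STAR 2.7.10b to GRCm39 with a GENCODE annotation and deposited counts divided by DESeq2 1.38.3 size factors (R 4.2.2), a normalized signal and not raw counts, with each table scaled separately. Whole reads could be recovered from these values within 0.1 for 9 of 10 nerve libraries (32013901 to 39197230 reads) and 5 of 6 stellate libraries. Several explants shared a well, no source states that replicates came from separate litters, and p-values then measure the spread between these libraries, which may be technical.

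Genes with a summed normalized count of at least 10 were tested with limma 3.58.1 (R 4.3.3) on log2(value + 1) over all 10 nerve libraries with a trended prior, two-sided, and p-values were adjusted by Benjamini-Hochberg over 23779 genes. Fold changes are on that scale, which understates changes of low genes. Calls needed an adjusted p no higher than 0.05 and a log2 difference of 0.5 or more in either direction. Same-numbered libraries deviated together. Pearson r over genes was 0.158 to 0.298 for SCG+PSC with SCG and 0.246 to 0.375 for SCG+MEF with SCG. For SCG+PSC with SCG+MEF it was lower, at 0.0966 to 0.211. The replicate number was therefore also used as a block, which pairs same-numbered libraries. This pairing is read from the data, since no label ties a number to a shared litter or day. The labels tie no library to an experimental date, which the study used as a covariate, so date and group were not separated here.

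Alternatives were the replicate block, other pseudocounts, filters and scalings, the groups compared alone, edgeR 4.0.16 and DESeq2 1.42.0 on recovered reads (9 nerve libraries, without SCG+PSC replicate 4), and leaving out each library. On simulated data for SCG+PSC against SCG over 23779 genes, limma recovered 87% of 100 genes changed 2-fold and 100% of 100 changed 4-fold, with 11 false calls. The simulated libraries had no shared deviation between same-numbered libraries, and their spread was smoothed over genes of like mean. All changed genes had a mean of at least 50. The recovered shares therefore do not carry over to the measured libraries, where recovery may be lower. Positions and promoters came from the GRCm39 genome and a GENCODE annotation of it, with windows for the 6 members in a RefSeq promoter table. Named were the 10 members, the 3 ligands, up to 4 called genes of each list or otherwise the 2 with the highest mean, and the 10 genes most like the members with a mean of at least 50, and some genes of the lists are not reported here. The members and the 20 lists were chosen with earlier results of these data known.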

Additional observations from a re-analysis of the deposited data

Results flagged for a closer look

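SCG+PSC was the only group with 4 libraries, and only its libraries were examined. Of 34 sets of 4 values, 5 had a library far from the other 3, where chance gives about 1 in 20. Some sets are shares built from counts in other sets, so the sets are not independent and these rates are not a test. C1qc was highest in replicate 1, at 1956 normalized counts against 1493 to 1555 in the others. C1qc as a percentage of the C1q sum was lowest in replicate 4, at 33.6%. The summed level of the Mrc1-type resident macrophage genes was highest in replicate 1, at 6635 normalized counts. The summed level of the dendritic cell markers was lowest in replicate 2, at 539 normalized counts, and that of the ligands Csf1, Il34 and Cx3cl1 was highest in replicate 2, at 8482.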

How the results depend on the processing

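The count of members past the threshold in SCG+PSC against SCG was 2 with the replicate block, with DESeq2 and with DESeq2 and the block together, and 0 with the other alternatives that kept all libraries and with edgeR. The edgeR and DESeq2 fits ran without SCG+PSC replicate 4. Leaving out 1 library gave 0 to 1, the 1 being Mrc1 without SCG replicate 2 (limma adjusted p 0.0175). In SCG+MEF against SCG, DESeq2 with the block called 1 member, Mrc1. Over these 12 alternatives, the log2 fold change in SCG+PSC against SCG ranged from 1.09 to 1.22 for Mrc1 and from 1.41 to 1.54 for Clec4n, with adjusted p from 2.09e-06 to 0.914 and from 8.28e-05 to 0.933. Leaving out 1 library gave 1.04 to 1.50 and 1.13 to 1.74.

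The count over all genes in SCG+PSC against SCG was 8, and 312 with the replicate block, 3 with the 2 groups alone, 3 with edgeR, 59 with DESeq2, 421 with DESeq2 and the block and 3 to 9 without 1 library. In SCG+MEF against SCG it was 3, and 38 with the block, 5 with quantile normalization, 5 over protein-coding genes, 1 with the 2 groups alone, 22 with DESeq2, 110 with DESeq2 and the block and 2 to 4 without 1 library. In SCG+PSC against SCG+MEF it was 0 by limma and by edgeR, 187 with the block, 18 with DESeq2 and 371 with both, and 971 genes had an unadjusted p under 0.05. SCG+PSC replicate 4 has no partner in that comparison, as in SCG+PSC against SCG.

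Of 30 results for single members, 9 kept their sign and their call over 22 alternatives. Among the alternatives that did not leave out libraries in turn, the sign turned for Adgre1 in SCG+MEF against SCG with quantile normalization (-0.022) and for Csf1r in SCG+PSC against SCG+MEF with DESeq2, which lacked SCG+PSC replicate 4 (-0.00010). Leaving out 1 library moved the log2 fold change across 0 for members near it. In SCG+PSC against SCG the ranges were -0.24 to 0.031 for Csf1r, -0.28 to 0.22 for Cd68, -0.56 to 0.033 for Cx3cr1, -0.37 to 0.010 for C1qb and -0.19 to 0.15 for C1qc. In SCG+MEF against SCG they were -0.086 to 0.086 for Adgre1, -0.28 to 0.079 for Csf1r, -0.23 to 0.27 for Cd68, -0.24 to 0.17 for Aif1, -0.12 to 0.57 for Cx3cr1, -0.10 to 0.32 for C1qa, -0.23 to 0.16 for C1qb and -0.22 to 0.22 for C1qc. In SCG+PSC against SCG+MEF they were -0.18 to 0.18 for Csf1r, -0.24 to 0.13 for Cd68, -0.10 to 0.23 for C1qa, -0.27 to 0.0070 for C1qb and -0.20 to 0.14 for C1qc. The cause of these changes was not tested.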
